A study of Mus musculus with 12 samples.

Results

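Weak BMAL1 regions at single promoters are described here: 1274 regions, 26.9% of those in which the authors counted BMAL1 ChIP-seq reads. A region was included when it lay within 1 kb of a gene start, taken as the upstream end of the gene's outermost exon, when it was not within 1 kb of a pair of opposite-strand starts at most 1 kb apart, and when its mean signal in the 2 EtOH ChIP libraries was below the median of all regions. These regions were thus chosen by the EtOH ChIP signal, and every EtOH ChIP level and every change from EtOH below is a description with no test. Of the 2944 regions within 1 kb of a start, 1281 were strong regions (at or above that median) at single promoters, and 191 weak and 198 strong regions lay at bidirectional promoters; the remaining 1796 regions were farther from any start. The study used mouse embryonic fibroblasts of 129/sv background that lack functional Per1, Per2, Nr1d1 and Nr1d2 (labelled per1 -/-, per2 -/-, nr1d1 -/-, nr1d2 -/-) and carry a transgene labelled PER2-ER; both treatment groups share these deletions and the transgene. Cells received 1 µM 4-hydroxytamoxifen (4-OHT), which the design text describes as PER2 induction, or its solvent, 0.1% EtOH, for 4 hours. BMAL1 ChIP, input DNA and mRNA were each sequenced from 2 EtOH and 2 4-OHT libraries, 12 in all. The labels give neither the promoter of the transgene nor whether the cells are 1 clone. No group lacks the transgene, so an effect of 4-OHT itself and of PER2-ER cannot be told apart.

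BMAL1 pairs with CLOCK to form the activator of the circadian clock, which binds the E-box CACGTG in promoters and enhancers. PER and CRY proteins, products of genes that the pair activates, bind CLOCK and BMAL1 and close the loop by repressing it; REV-ERB proteins, encoded by Nr1d1 and Nr1d2, repress transcription of Bmal1 itself. In fibroblasts, as in most cells, the same loop drives clock output genes such as Dbp.

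The upstream promoter stretches of 10 of the regions are printed first, to show stretches that hold an E-box beside stretches that do not. The letters are RefSeq GRCm38.p6 (mm10), each the stretch of the region that lies within 250 bases upstream of the RefSeq start, on the gene's strand, 5′ to 3′, with CACGTG in capitals. Mafg (minus strand, chr11:120633548-120633612), which encodes a small MAF transcription factor, had no input read with 4-OHT, and its E-box begins 41 bases before the start. Vma21 (plus strand, chrX:71816646-71816757), a V-ATPase assembly factor, has an E-box beginning 52 bases before the start. Rreb1 (plus strand, chr13:37825972-37826037), a zinc finger transcription factor, and Pgrmc2 (minus strand, chr3:41083047-41083090), a membrane haem-binding protein, are the genes found with an E-box in such a window whose mRNA fell. Only regions that overlap a window were searched. The E-boxes of Rreb1 and Pgrmc2 begin 9 and 37 bases before the start. The region at Pgrmc2 is an 80-bp trimmed piece, and the same start also has a strong region. Klf6 (plus strand, chr13:5861383-5861488), a Krüppel-like transcription factor, has an E-box beginning 43 bases before the start; it was chosen after its values were seen.
Mafg: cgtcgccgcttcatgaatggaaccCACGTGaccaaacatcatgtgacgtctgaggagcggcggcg
Vma21: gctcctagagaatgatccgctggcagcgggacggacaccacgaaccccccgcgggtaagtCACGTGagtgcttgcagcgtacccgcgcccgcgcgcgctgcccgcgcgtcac
Rreb1: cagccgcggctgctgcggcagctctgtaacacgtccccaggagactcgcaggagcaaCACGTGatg
Pgrmc2: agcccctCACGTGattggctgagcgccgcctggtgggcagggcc
Klf6: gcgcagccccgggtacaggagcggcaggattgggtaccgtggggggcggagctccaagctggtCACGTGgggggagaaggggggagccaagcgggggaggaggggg
The other 5 hold no CACGTG in the stretch printed. Dpy19l3 (minus strand, chr7:35754466-35754658), a C-mannosyltransferase gene, had the largest fall of ChIP signal by the fitted value among regions of at least 15 RP10M, and Tpm4 (plus strand, chr8:72135139-72135287), a tropomyosin gene, one of the 5 smallest. Clock (minus strand, chr5:76304549-76304745) encodes BMAL1's partner. Mef2a (minus strand, chr7:67372859-67373009), a MADS-box transcription factor gene, fell and Tubb2a (minus strand, chr13:34078009-34078117), a beta-tubulin gene, rose in mRNA.
Dpy19l3: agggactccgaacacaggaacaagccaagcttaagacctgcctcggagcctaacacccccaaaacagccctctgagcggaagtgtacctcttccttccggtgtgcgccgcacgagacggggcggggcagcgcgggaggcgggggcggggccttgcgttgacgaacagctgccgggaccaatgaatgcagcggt
Tpm4: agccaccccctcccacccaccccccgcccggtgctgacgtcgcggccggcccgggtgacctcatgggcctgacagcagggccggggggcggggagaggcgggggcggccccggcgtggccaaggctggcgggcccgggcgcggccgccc
Clock: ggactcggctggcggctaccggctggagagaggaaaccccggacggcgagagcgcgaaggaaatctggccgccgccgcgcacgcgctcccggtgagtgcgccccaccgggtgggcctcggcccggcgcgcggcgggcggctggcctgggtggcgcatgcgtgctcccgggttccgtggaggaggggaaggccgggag
Mef2a: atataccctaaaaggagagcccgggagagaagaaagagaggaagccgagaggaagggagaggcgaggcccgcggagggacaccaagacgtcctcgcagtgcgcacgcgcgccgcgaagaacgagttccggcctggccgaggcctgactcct
Tubb2a: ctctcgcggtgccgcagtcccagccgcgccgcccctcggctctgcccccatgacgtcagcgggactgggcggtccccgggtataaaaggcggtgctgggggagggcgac

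The ChIP and input libraries held 12481308 to 33454366 reads each, and the mRNA libraries 60267540 to 89695667 counted reads. Region signal is given as reads in the region per 10000000 library reads (RP10M). At these depths the regions held few reads: the median region had 20 and 23 reads in the EtOH ChIP libraries, 7 and 11 in the 4-OHT ChIP libraries, and 2 and 5 in the 4-OHT inputs. Across the 1274 regions the Pearson correlation of log2 RP10M between replicates was 0.75 for EtOH ChIP, 0.49 for 4-OHT ChIP, 0.30 for EtOH input and 0.26 for 4-OHT input. The summed level of 12 fibroblast markers was 27788 to 30430 CPM (counts scaled to library size), with Thy1 and Lum at 0 in all 4 mRNA libraries, while the summed levels of endothelial, haematopoietic, neural, pluripotent, epithelial and muscle marker lists were at most 0.158, 3.29, 5.20, 11.04, 16.1 and 30.8 CPM. Counts over the deleted loci remained in every mRNA library, at 36.7 to 45.4 CPM for Per1, 549 to 610 CPM for Per2, 49.2 and 55.9 CPM with EtOH and 16.4 and 17.5 CPM with 4-OHT for Nr1d1, and 83.4 and 92.5 CPM with EtOH and 39.5 and 35.3 CPM with 4-OHT for Nr1d2. Whole-gene counts therefore do not check the deletions, and reads of the transgene and of Per2 cannot be told apart.

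The weak regions were short. Their median length was 161 bp, against 372 bp at strong single promoters, and 81 of them were under 50 bp, against 0 of the strong regions. In the authors' file, 310 (24.3%) were pieces of a split peak or no longer held the summit recorded for them, against 6.71% of the strong regions. Their median fold enrichment, as the authors' MACS2 output gives it, was 6.48, against 12.5 for the strong regions. Because region signal grows with length, it was also expressed per 100 bp: the median EtOH ChIP signal was 8.89 RP10M per 100 bp in the weak and 13.9 in the strong regions. The signal limit was 23.7 RP10M. Just inside it lay regions at Dnaja2, Gm1720, Rin1, Use1 and Thra, such as Use1 at 23.0 and 24.4 RP10M in the 2 EtOH ChIP libraries, and just outside it regions at Usp4, Gadd45b, Eif4a2, Actr3 and Canx, such as Gadd45b at 23.7 and 23.8 RP10M.

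The regions lay at 1183 genes, of which 1068 had 1 region, 106 had 2, 8 had 3 and Cebpb had 4. The region covered the annotated start itself in 385 cases (30.2%), against 806 (62.9%) of the longer strong regions, while similar shares lay within 500 bp of it, 88.9% of the weak and 90.9% of the strong. The centre was downstream of the start in 690 (54.2%) and upstream in 582, with a median offset of 19.75 bp downstream. At 178 regions the same start also had a strong region, so that the gene was not free of strong BMAL1 signal; the other 1096 had none.

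**Figure D1:**
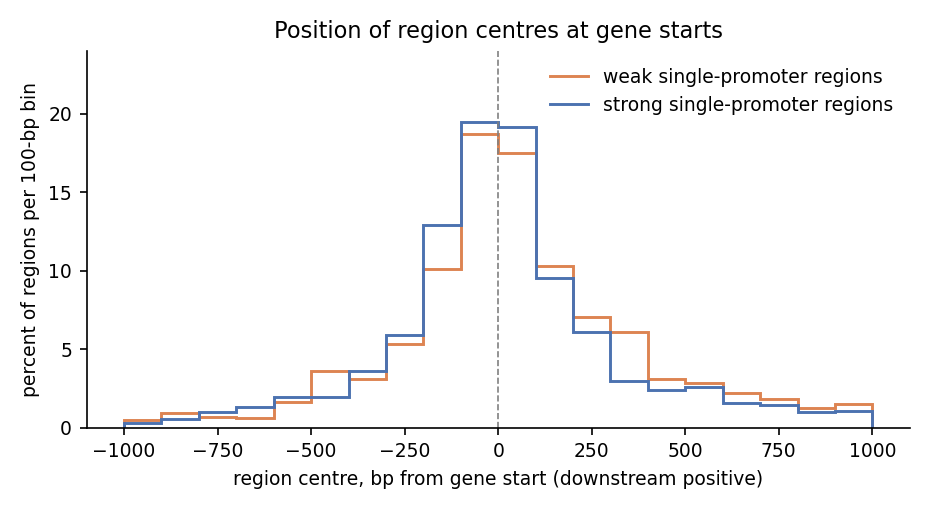
Percent of regions whose centre falls in each 100-bp bin of distance from the gene start (horizontal axis in bp, downstream positive), for the 1274 weak (orange) and 1281 strong (blue) single-promoter regions. Both peak in the bins on either side of the start, with 18.7% and 17.5% of the weak and 19.4% and 19.1% of the strong regions.

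The share of weak regions with an E-box lay between that of strong regions and that of promoters in general. Of the weak regions, 639 overlapped a RefSeq promoter window of 300 bases (250 before to 50 after the start), and 145 of those windows (22.7%) held CACGTG, against 423 of 815 (51.9%) at strong single promoters, 32 of 121 (26.4%) at weak bidirectional promoters, 2346 of 32817 (7.15%) of all windows and 416 of 8874 (4.69%) of windows of tested genes with no region within 10 kb. No test was made on these shares, since promoters are not samples. Windows at weak regions had a median GC of 66.3% and 27 CpG dinucleotides, and those at strong single promoters 65% and 26. Tested genes with no region had 60% and 19, and all windows 52.7% and 7. CACGTG itself holds a CpG, and the shares were not adjusted for base composition. Among the weak regions the share was 12.8% in the lowest tertile by EtOH signal, 24.2% in the middle tertile and 28.6% in the highest. Where a start had no strong region it was 24.2%. In the 241 weak regions that lay wholly inside a window, 52 (21.6%) held CACGTG in their own sequence, against 17 of 31 such strong regions. Of the 153 E-boxes found in the windows of weak regions, 113 (73.9%) were within 50 bp of the region's centre. The median distance was 32.5 bp. For strong single-promoter regions the values were 45.9% and 55.5 bp. Weak regions had a median length of 161 bp and strong ones of 372 bp, and these distances depend on length. No share from random placement was computed, so neither class is called more central.

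**Figure D2:**
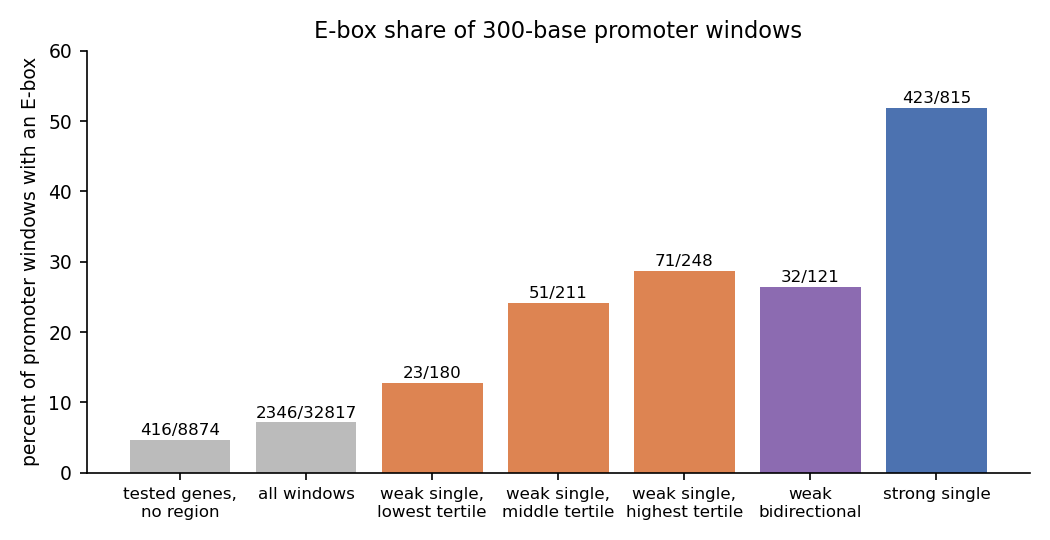
Percent of 300-base RefSeq promoter windows that hold CACGTG, by class of window, with the number of windows above each bar. Shares rise from 4.69% in tested genes with no region, through 12.8% to 28.6% in the 3 tertiles of the weak single-promoter regions by EtOH signal, to 51.9% at strong single promoters.

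The other motifs searched on both strands gave shares closer to one another at weak regions, strong regions and tested genes with no region. Against all windows several differed more. The E-prime box CACGTT was in 7.36% of the windows at weak regions, 7.73% at strong ones and 5.03% at tested genes with no region, and a CACGTT cannot share bases with a CACGTG. The GC box GGGCGG, the SP1 element of CpG-rich promoters, was in 80.8%, 77.5% and 59.9%. The CRE core TGACGT, which can share 2 bases with an E-box, was in 13.0%, 15.3% and 10.9%, the ETS site CCGGAAG in 18.3%, 19.4% and 17.0%, the NRF1 core GCATGCG in 8.14%, 7.48% and 6.03%, and the CCAAT box in 36.3%, 37.2% and 38.3%. The nuclear receptor element AGGTCA was in 9.39% of windows at weak regions, 15.3% at strong regions and 12.1% at tested genes with no region; of all windows 16.3% held it. Of all 32817 windows, 4.69% held CACGTT, 35.6% GGGCGG, 7.51% TGACGT, 8.86% CCGGAAG, 3.57% GCATGCG and 37.4% CCAAT. A match is a description of the letters only.

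With EtOH the weak regions had median signals of 14.8 and 13.0 RP10M in the 2 ChIP libraries, and with 4-OHT of 5.09 and 5.31 RP10M. The inputs of the same cells had medians of 1.46 and 1.42 RP10M with EtOH and 1.60 and 1.49 RP10M with 4-OHT. Both 4-OHT ChIP medians thus lay below both EtOH ChIP medians and above all 4 inputs. The 4-OHT ChIP medians (5.20 ± 0.153 RP10M, SD, n = 2) were above those of the 4-OHT inputs (1.55 ± 0.0762, SD, n = 2), with an exact two-sided permutation p of 0.333, the smallest that 2 against 2 libraries can give. Nothing in the labels ties each replicate to a culture of its own, and the p-values cover the spread between these libraries only, which may be technical.

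**Figure D3:**
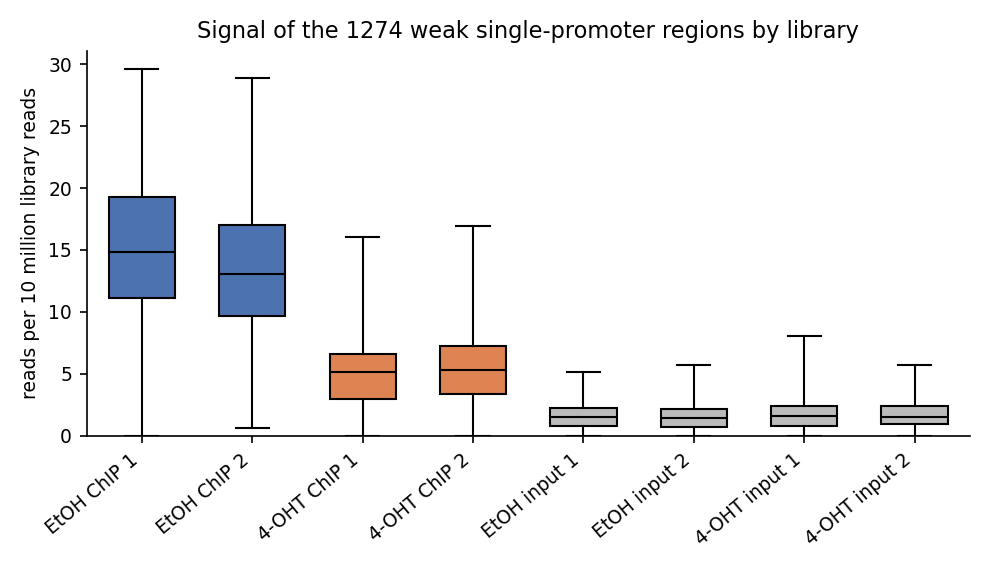
Signal of the 1274 weak single-promoter regions in each of the 8 ChIP and input libraries, in RP10M; boxes span the quartiles, lines mark medians and whiskers reach the lowest and highest region. The 4-OHT ChIP medians (5.09 and 5.31) lie between those of EtOH ChIP (14.8 and 13.0), which chose the regions, and the inputs (1.42 to 1.60).

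ChIP signal that remained with 4-OHT was tested against the 4-OHT inputs. No group is a ChIP with a control antibody or from cells without BMAL1, so antibody background above input cannot be told from BMAL1. The signal limit used the EtOH ChIP libraries alone, and the authors' files name the regions as MACS2 peaks of the control; the libraries behind that peak calling are not given in the sources used here. Of the 1274 weak regions, 817 (64.1%) were above input and 0 below at an adjusted p under 0.05 (edgeR's quasi-likelihood test, Benjamini-Hochberg over all regions), against a background of 80.6% over all regions; 856 were above and 0 below at an unadjusted p under 0.05. The share called at strong single promoters was 97.7% (1251 of 1281) and at weak bidirectional promoters 68.6% (131 of 191). The median log2 ratio of the weak regions was 1.63 (quartiles 1.18 and 2.13), a 3.10-fold ratio, against 2.12 at strong single promoters and 1.88 over all regions. Both ChIP libraries exceeded both inputs in 1048 weak regions (82.3%), against 90.5% of all regions. The difference between weak and strong regions in median log2 RP10M was −1.50 and −1.57 in the 4-OHT ChIP libraries. In the 4-OHT inputs it was −0.96 and −1.32. The mean gap was wider by 0.39 in ChIP than in input, with an exact two-sided permutation p of 0.333, the smallest possible. BMAL1 ChIP signal with EtOH split weak from strong, and the input values differed between libraries, so nothing is read from this gap. Library totals set the scale; with TMM factors over the regions, which take the common signal as the zero, 1 weak region was above input and 3 below, and the median log2 ratio was −0.23. Without the second 4-OHT input library 462 were called, and without the second 4-OHT ChIP library 486.

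**Figure D4:**
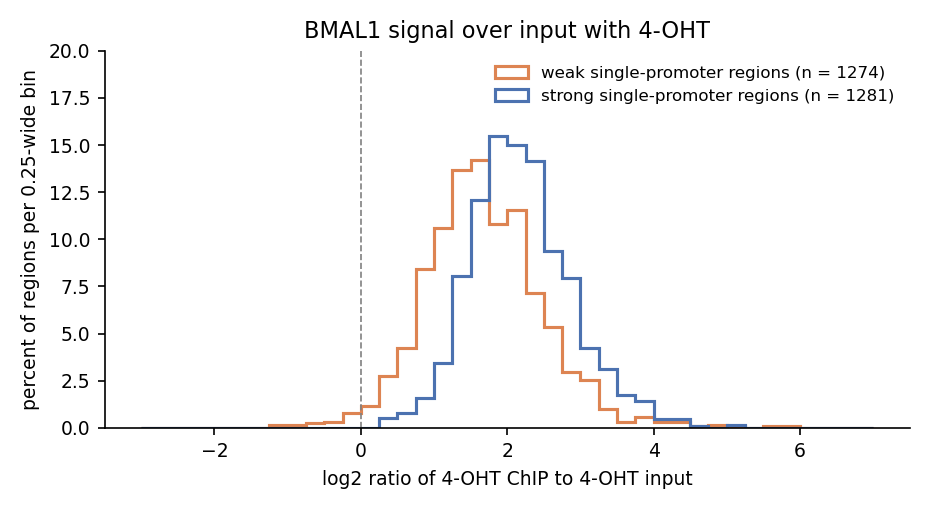
Distribution of the fitted log2 ratio of 4-OHT ChIP to 4-OHT input (horizontal axis) over the 1274 weak (orange) and 1281 strong (blue) single-promoter regions, in percent of regions per bin; the dashed line marks equal signal. Medians are 1.63 for the weak and 2.12 for the strong regions, and the distributions overlap.

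The number of reads moved with the calls. Of weak regions with 0 to 9 reads over both 4-OHT ChIP libraries, 15 of 180 (8.33%) were called, against 99 of 259 with 10 to 14 reads, 199 of 298 with 15 to 19, 222 of 251 with 20 to 24, 160 of 164 with 25 to 29 and 122 of 122 with 30 or more. The strong regions with as few reads gave 1 of 5, 10 of 18, 37 of 46 and 99 of 104 in the classes from 10 to 29 reads. These reads are also the numerator of the ratio, so the classes are no test. Shape moved with the calls too: 142 of the 310 split or trimmed regions (45.8%) and 675 of the other 964 (70.0%) were called. Their median log2 ratios were close, 1.58 and 1.65, while their median reads over both 4-OHT ChIP libraries were 12 and 19. Of regions covering the start 292 of 385 (75.8%) were called, and of the rest 525 of 889 (59.1%). Here the median log2 ratios were 1.71 and 1.58, with 21 and 16 reads. Regions with an E-box in the window were called in 106 of 145 cases (73.1%) with a median log2 ratio of 1.75, and those without one in 331 of 494 (67.0%) with a median of 1.66. Their part in the result was not tested.

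The 10 largest ratios to input rested on few input reads. Mafg had 2.91 and 4.34 RP10M in the 4-OHT ChIP libraries and no read in either 4-OHT input, against 12.6 and 8.51 RP10M in the EtOH ChIP libraries; taking 3 reads over both inputs as the limit of a count of 0, its signal was at least 5.78-fold higher than input (edgeR adjusted p = 0.000119). That bound takes the 13 ChIP reads as exact; with their counting error included, the exact 95% lower limit of the ratio was 4.06. Txnl4a, a spliceosome component, was by the same bound at least 4.89-fold higher, with an exact lower limit of 3.35. Igf2bp2, an RNA-binding protein gene, was at least 3.11-fold higher (exact lower limit 1.92) and Paxip1, a BRCT-domain protein gene, at least 2.67-fold (exact lower limit 1.57). Igf2bp2 was no longer called without the second 4-OHT input (adjusted p = 0.0803), and Paxip1, a 21-bp piece of a peak, lost its call without the first 4-OHT ChIP library (adjusted p = 0.232) or without the second 4-OHT input (0.145).
Vma21 had 8.005 and 7.72 RP10M with 4-OHT and 0.801 and 0 RP10M in the inputs, 27 reads against 1, a ratio of 36.0 with an exact 95% counting interval of 5.93 to 1474. Vamp1, a vesicle membrane protein gene, had 22 reads against 1 and a ratio of 29.3 (4.74 to 1211), and Igf1r, the insulin-like growth factor receptor gene, 21 against 1 and a ratio of 28.0 (4.50 to 1158). The regions at 1200014J11Rik and Yaf2 had 20 and 19 reads against 1 input read each, and Tiam2, a guanine nucleotide exchange factor gene, 34 against 2 (ratio 22.7, interval 5.81 to 195). Intervals and lower limits cover counting error only. They do not cover the choice of the largest ratios, which favours regions with few 4-OHT input reads. With EtOH the mean input was 1.26 RP10M at Mafg, 1.44 at Txnl4a, 0.177 at Igf2bp2 and 0.354 at Paxip1.
Klf6 had 7.28 and 6.76 RP10M with 4-OHT and 0 and 0.897 RP10M in the inputs, against 19.3 and 14.2 RP10M with EtOH (24 reads against 3, ratio 10.7, interval 3.24 to 55.3). In these regions both 4-OHT ChIP libraries lay above both inputs.

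As a description, 1090 of the weak regions (85.6%) had lower ChIP signal with 4-OHT than with EtOH at an adjusted p under 0.05 and 0 higher, where 93.8% of all regions were lower and 0 higher; the EtOH libraries chose the regions, so nothing is read from this count. The median log2 change was −1.42, 2.68-fold lower, against −1.84 at strong single promoters, and in 1214 weak regions both 4-OHT libraries lay below both EtOH libraries. With TMM factors the median was 0.25, with 17 regions higher and 0 lower. Among the 571 regions of at least 15 RP10M with EtOH, Dpy19l3 went from 20.7 and 21.5 to 3.64 and 1.45 RP10M, Fabp3, a fatty acid-binding protein gene, from 23.0 and 23.2 to 1.46 and 3.38 RP10M, and the region at the start of Cebpb, a C/EBP transcription factor gene, from 15.6 and 16.4 to 2.18 and 1.93 RP10M. By group means these are 8.31-, 9.56- and 7.78-fold falls. The other 7 of the 10 largest by fitted log2 change, at 1700003F12Rik, Pgpep1, Ybx1, Rif1, Qdpr, Zfp28 and Mical3, were 5.35- to 8.52-fold lower by means.
At the other end, the region at Zfand3 went from 19.997 and 14.7 to 12.4 and 14.5 RP10M, a 1.29-fold difference in means. Cirbp, encoding a cold-inducible RNA-binding protein, went from 16.3 and 17.0 to 8.005 and 12.1 RP10M, Tpm4 from 19.3 and 12.5 to 10.9 and 9.17 RP10M, Tbx3, a T-box factor gene, from 15.6 and 18.7 to 8.005 and 13.5 RP10M and Tmem242 from 15.6 and 15.9 to 8.005 and 12.6 RP10M. In all 5 both 4-OHT libraries lay below both EtOH libraries, by the least margin at Zfand3. None of the 10 regions with the largest falls was called above the 4-OHT input (adjusted p from 0.148 for Mical3 to 0.763 for Dpy19l3), and all 5 with the smallest falls were; the 4-OHT ChIP libraries enter both values.

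Input signal gave no call between treatments: 0 of the 1274 weak regions differed at an adjusted p under 0.05 in edgeR, and 0% of all regions did. With medians of 2 to 5 reads per input library, even large fitted changes were not called. At Mafg the fitted log2 change of input was −4.46 (edgeR adjusted p = 0.964). The lack of calls thus does not show that input was unchanged. At an unadjusted p under 0.05, 32 weak regions were higher and 14 lower with 4-OHT, and DESeq2 called 0 as well. The median log2 change of input was 0.18 in the weak regions and 0.13 over all regions.

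Of the 66 genes on the clock lists, 10 had a weak region at their start, beside 5.08% of all annotated genes with 1 start and 8.65% of tested genes. Por, encoding the electron donor of microsomal cytochrome P450 enzymes, had 18.5 and 17.6 RP10M with EtOH and 9.46 and 9.17 RP10M with 4-OHT, against 4.01 and 1.79 RP10M in the 4-OHT inputs; it was above input (log2 ratio 1.91, SE 0.49, edgeR adjusted p = 0.000573), a call lost without the second 4-OHT input (adjusted p = 0.102). Crebbp, a histone acetyltransferase gene, had 6.55 and 9.66 RP10M with 4-OHT against 0 and 2.09 RP10M in the inputs, and was also above input (log2 ratio 2.42, SE 0.57, edgeR adjusted p = 0.000198). A weak region upstream of Dbp, the PAR bZIP output gene, had 11.6 and 2.41 RP10M with 4-OHT against 0.801 and 1.20 RP10M in the inputs (log2 ratio 2.45, SE 0.68, edgeR adjusted p = 0.00119); its replicates differed widely, and without the first ChIP library the adjusted p was 0.259. At Clock the region covering the start had 22.2 and 18.1 RP10M with EtOH, 3.64 and 4.34 RP10M with 4-OHT, and 0 and 2.09 RP10M in the 4-OHT inputs, which missed the threshold (edgeR adjusted p = 0.0544); without the second 4-OHT input, where the remaining input had no read, it passed (adjusted p = 0.0135). The weak regions at Nampt, Per1, Wee1, Ezh2, Wdr5 and Usp9x were not called above input (adjusted p from 0.0677 for Nampt to 0.718 for Per1), though Ezh2 passed without the first 4-OHT ChIP library (log2 ratio 1.23, adjusted p = 0.048). Nampt makes NAD, Wee1 is a mitotic kinase, and Ezh2, Wdr5 and Usp9x are partners of PER and CRY proteins in the list used. The starts of Nampt, Per1 (deleted in these cells), Dbp and Wee1 also had a strong region, and those of Por, Crebbp, Clock, Ezh2, Wdr5 and Usp9x did not. Of the 24 genes listed as CLOCK-BMAL1 targets, 5 had a weak and 17 a strong single-promoter region, beside 1183 and 1234 of 23287 annotated genes with 1 start. None of the 10 genes passed the mRNA test; their log2 changes ran from −0.14 for Clock to 0.20 for Wee1.

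Genes with several weak regions show how far signals and calls at 1 start differed. These signals are not divided by length, and the regions at 1 start differed in length. Their differences are thus not read as differences in BMAL1 binding. At Cebpb the 4 regions were 166, 24, 38 and 30 bp long and had mean EtOH signals of 16.0, 4.58, 2.53 and 3.84 RP10M. Their mean 4-OHT signals were 2.06, 0.483, 0.847 and 2.54 RP10M. The last, 776.5 bp downstream of the start, was called above input (edgeR adjusted p = 0.00868), and the other 3 were not. Its 2.54 RP10M lay below the median of the weak regions with 4-OHT, 5.20 RP10M, so the call rested on few reads. At Crim1, a transmembrane protein gene, all 3 regions were called (log2 ratios 2.70, 1.80 and 1.95), as were all 3 at Slc38a2, an amino acid transporter gene (1.10, 1.32 and 2.10). At Thra, the thyroid hormone receptor alpha gene, regions of 214 and 177 bp centred at −1034.5 and −133 bp from the start were called. The 61-bp region at 302 bp was not (edgeR adjusted p = 0.734). At Uck2, a uridine-cytidine kinase gene, 2 of 3 were called, with log2 ratios of 3.53 and 4.22 and lengths of 63 and 137 bp. The other was 117 bp long. Regions at 1 start share its chromatin and are not replicates.

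Genes at weak regions changed in mRNA about as often as all genes. Of the 1183 genes, 1143 passed the low-count filter and were tested; with 4-OHT 11 rose and 20 fell (edgeR, adjusted p under 0.05), 2.71%, against backgrounds of 0.802% higher, 1.63% lower and 2.44% either way over 13216 genes. The median log2 change was −0.01. At strong single promoters only, 17 of 1050 genes rose and 25 fell (4.00%), and of 9624 genes with no region within 10 kb 2.31% were called. Of the 786 tested genes with 1 weak region and no other region within 10 kb, 4 rose and 15 fell. The genes were well expressed: their median EtOH level was 20.6 CPM per kb of exon, against 20.03 at strong regions, 9.35 at genes with no region and 11.2 over all tested genes. Without EtOH replicate 2, 4 genes at weak regions rose and 9 fell; without EtOH replicate 1, 11 fell; without 4-OHT replicate 1, 23 rose; and without 4-OHT replicate 2, 5 rose.

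**Figure D5:**
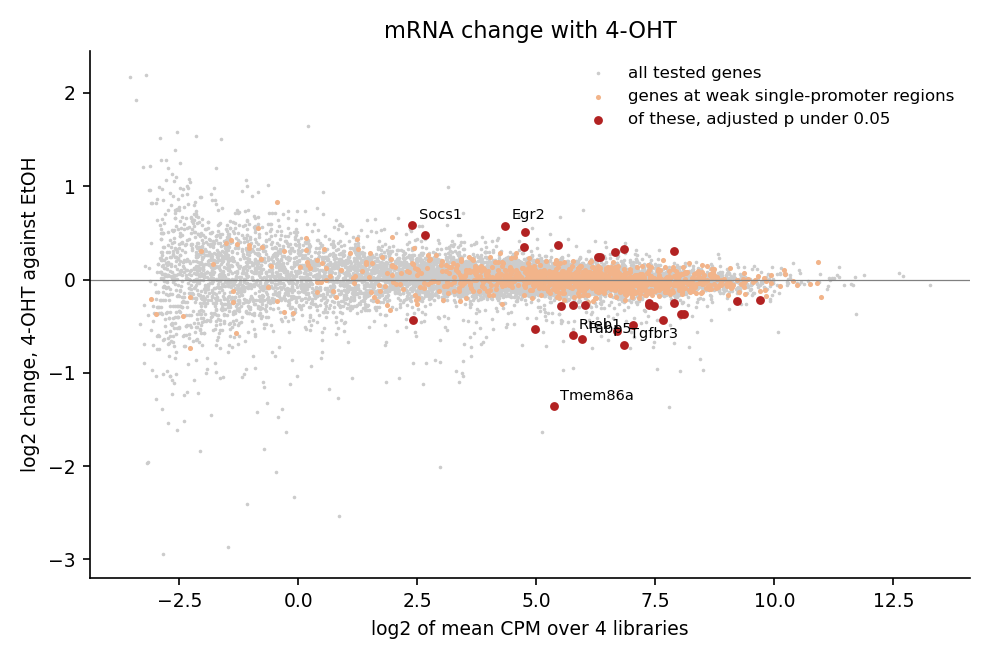
log2 change of mRNA with 4-OHT against the log2 of mean CPM for all 13216 tested genes (grey), the 1143 at weak single-promoter regions (light orange) and the 31 of these with an adjusted p under 0.05 (red); genes past a log2 change of 0.55 either way are named. The red points fall on both sides of 0, from Tmem86a at −1.36 to Socs1 at 0.58.

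Tmem86a, a lysoplasmalogenase gene, fell most, from 61.7 and 57.3 CPM with EtOH to 23.2 and 23.3 CPM with 4-OHT (log2 change −1.36, SE 0.07, edgeR adjusted p = 3.44e-18). Its weak region is a 2-bp piece beside a strong region at the same start, so the gene is not an example of weak signal alone. Tgfbr3, the TGF-beta type III receptor gene, fell from 139 and 143 to 88.6 and 85.9 CPM (log2 change −0.70, adjusted p = 6.4e-11). Fabp5, a fatty acid-binding protein gene, fell from 77.9 and 74.0 to 46.8 and 51.0 CPM (log2 change −0.64, adjusted p = 4.72e-09). Rreb1 fell from 65.2 and 65.2 to 42.6 and 43.9 CPM (log2 change −0.59, adjusted p = 2.77e-08), while its ChIP signal was 13.3 and 15.3 RP10M with EtOH and 9.46 and 13.0 RP10M with 4-OHT. Mef2a fell from 117 and 129 to 87.2 and 82.0 CPM (log2 change −0.55, adjusted p = 8.29e-08).
In each of these 5 genes both 4-OHT libraries lay below both EtOH libraries. Larp1b, an RNA-binding protein gene, fell by 0.53 on the log2 scale, Rai1, a chromatin-binding regulator of Clock transcription, by 0.49, Pgrmc2 by 0.44, Ywhaq, a 14-3-3 protein gene, by 0.37, Ppp3ca, the calcineurin catalytic subunit gene, by 0.37, Gpam, the mitochondrial glycerol-3-phosphate acyltransferase gene, by 0.29 and Mir143hg, the host gene of Mir143, by 0.43. Of these 12, 9 kept their call whichever library was left out; Gpam (adjusted p up to 0.280), Mir143hg (up to 0.215) and Ppp3ca (0.0527, without EtOH replicate 2) did not. The 8 other genes that fell had log2 changes from −0.28 to −0.22, and 0 of them kept their call whichever library was left out or with a replicate block. Without EtOH replicate 2 their adjusted p ranged up to 0.592 for Nov.

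The largest rise at a weak region was 0.58 on the log2 scale. Egr2, an early growth response factor gene, rose from 17.1 and 15.3 to 23.2 and 25.3 CPM (log2 change 0.58, SE 0.08, edgeR adjusted p = 4.53e-06), and its region went from 19.997 and 19.3 to 8.73 and 5.79 RP10M. Ier5l, a paralogue of the immediate early gene Ier5, rose from 21.7 and 23.2 to 28.3 and 35.6 CPM (log2 change 0.51, adjusted p = 9.44e-05). Socs1, a suppressor of cytokine signalling, rose from 4.30 and 4.14 to 5.71 and 6.89 CPM (log2 change 0.58, adjusted p = 0.00112); it also had a strong region at its start. Tmem200b (0.48), Egln3, a HIF prolyl hydroxylase gene (0.37), Maml3, a Notch coactivator gene (0.35), Irf2bp2, a transcriptional corepressor gene (0.32), Hnrnpa0 (0.31), Tubb2a (0.29), Ier5 (0.25) and Samd1 (0.24, with a 1-bp region beside a strong one) had the log2 changes given in brackets. Egr2 and Ier5l kept their calls whichever library was left out, and the other 9 lost theirs without at least 1 library, with adjusted p up to 0.661 for Tubb2a without EtOH replicate 2. For Samd1, Ier5, Tubb2a, Egln3, Tmem200b and Socs1 the call was lost without 4-OHT replicate 2, where their log2 changes were 0.18, 0.24, 0.18, 0.26, 0.35 and 0.43; for Maml3, Hnrnpa0 and Irf2bp2 it was lost without EtOH replicate 2, where they were 0.32, 0.32 and 0.32.

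Genes whose weak region was called above the 4-OHT input, and genes whose region was not, were among both the rises and the falls. Of the 31 called genes, the regions at Rreb1 (log2 ratio to input 2.88), Egr2 (2.62) and Ywhaq (2.51) were called above input, and those at Tmem86a (adjusted p = 0.165), Egln3 (0.587), Socs1 (0.451) and Hnrnpa0 (0.765) were not. Genes whose window held an E-box numbered 144 tested, of which 0 rose and 2 fell, and those without one 479, of which 7 rose and 10 fell. Called genes whose regions overlapped no window, such as Tgfbr3, Fabp5, Ywhaq and Socs1, are in neither group. Over all tested genes 0.802% rose and 1.63% fell, and the difference between the groups with and without an E-box was not tested.

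The gene lists were described by how many of their members had a weak region, beside 5.08% of all annotated genes with 1 start and 8.65% of tested genes. Sterol synthesis had 6 of 26 genes, among them Srebf2, the transcription factor gene of the pathway, and the enzyme gene Cyp51, with log2 mRNA changes of −0.05 and −0.08. None of the list's genes at weak regions passed the mRNA test. Glycolysis and the hypoxia response had 6 of 27, Aldoa, Gapdh and Pkm among the glycolytic enzymes, the glucose transporter Slc2a1, P4ha1 and Egln3; Egln3 rose and the others had log2 changes of 0.05 upward without passing. Splicing factors had 10 of 68, among them Sf3b1, Srsf1, Srsf2 and U2af2, and Hnrnpa0 rose. Nuclear transport had 7 of 49, including the exportin Xpo1 and the importin Kpnb1, chromatin regulators 15 of 115, including the Polycomb genes Ezh2, Suz12 and Eed, and ubiquitin ligases and hydrolases 37 of 345, including Cul3 and Usp34. Vesicle traffic had 20 of 180, zinc finger proteins 28 of 422, solute carriers 22 of 367, chaperones 10 of 105, including Hspa8 and Hsp90aa1, cell cycle genes 7 of 56, glycosylation 9 of 83, the V-ATPase, lysosome and autophagy list 7 of 73, replication and repair 7 of 95, translation factors and tRNA synthetases 8 of 104, cytosolic ribosomal proteins 7 of 85, mitochondrial ribosomal proteins 7 of 76, respiratory chain subunits 4 of 85, proteasome subunits 2 of 48 and RNA polymerase II, Mediator and TFIID 4 of 96. Apart from Egln3 and Hnrnpa0, none of the tested genes of these lists at weak regions passed the mRNA test. The starts of Pkm, Xpo1, Suz12 and Cul3 also had a strong region, so these genes are not examples of weak signal alone.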

How the data were processed

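Reads were counted by the authors: the deposited counts per gene come from featureCounts 1.5.0-p1 over exons, reverse strand, on a UCSC mm10 annotation, per the file headers, which also give each gene's length. The deposited region files hold the count of each library's reads per region beside the MACS2 fold enrichment and −log10 p and q of the peak. The authors' signal table holds 5 plus reads per 10000000 library reads, found from its values; it is not divided by length. Submitters' processing notes name mm10 and bedtools 2.25.0. The aligner, and whether peaks were called on pooled libraries, are not given in the sources used here. Replicates are not said to be separate cultures.

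Counts were tested with edgeR 4.0.16 (quasi-likelihood, Benjamini-Hochberg over all 4740 regions or 13216 genes, threshold 0.05). Region fits used library totals recovered from the signal table, without TMM or a filter; the input comparison used all 8 libraries. mRNA fits used filterByExpr and TMM. DESeq2 1.42.0 and other alternatives were run, and the fits were tested on simulated counts. Log2 ratios of library values used a pseudocount of 0.1 RP10M. Left out were 133 genes on several chromosomes or strands. Promoter windows are from RefSeq GRCm38.p6; of 16280 genes matched by symbol, 77.6% had the same start in both annotations. The regions, gene lists and motifs were chosen with earlier results of these data known. Named regions are the 10 largest ratios to input, the 10 largest and 5 smallest falls, 5 on each side of the signal limit and those of clock genes; named genes are all called rises, the 12 largest falls and up to 4 genes per list.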

Additional observations from a re-analysis of the deposited data

How the results depend on the processing

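The scale of the ChIP values rests on library totals. With size factors estimated over the regions, 0 weak regions were above the 4-OHT input with DESeq2 (median log2 ratio −0.30), and with TMM factors 1 was above and 3 below (median −0.23); the median ChIP change from EtOH was 0.28 with 0 lower in DESeq2 and 0.25 with TMM, with 17 higher and 0 lower. The named falls were negative in the main analysis in 25 of 25 regions, a sign that the choice itself set for the largest falls. With TMM 11 turned positive, and with the input change subtracted 1 did. DESeq2 with library totals called 342 regions above input and 485 lower than with EtOH. Subtracting the input change left 341 lower, with a median of −1.64. Leaving out 1 library gave 462 to 812 regions above input (median 1.54 to 1.89) and 715 to 969 lower than with EtOH. The median input change was 0.18 and became 0.0498 with DESeq2, 0.0448 with TMM, 0.27 in the lowest quartile of all regions and 0 to 0.41 without 1 library. In the lowest quartile by EtOH signal the median ratio to input was 1.52 and the E-box share 17.8%. The median of the log2 ratio from library values was 1.72, with 1.22 at a pseudocount of 1 RP10M, 1.61 in the lowest quartile and 1.53 to 1.86 without 1 library. In mRNA, 4 to 23 genes rose and 9 to 29 fell without 1 library, 4 rose among genes with no other region, and without TMM factors the median was 0.0134. The causes were not tested, beyond that scaling on the regions removes a signal they share. Leaving out regions at a start with a strong region was chosen after seeing the data; 717 of 1096 remained above input.

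Replicate numbers are shared between groups, but nothing says that they pair samples, and replicate differences correlated by only 0.01 (ChIP), 0.03 (input) and −0.20 (mRNA) between treatments. With a replicate block, 782 regions were above input and 1057 lower than with EtOH, and 8 genes rose and 10 fell; 18 of the 31 mRNA calls were kept. The filter on low counts left 1120 weak regions in the input comparison, and none between inputs, so that fit has no value. Depth limits single regions: those under 10 reads with 4-OHT were called in 8.33% of cases. E-boxes could be searched only in promoter windows.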
